A study of Mus musculus with 36 samples.

Results

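The genes described here encode the ATPases of the chromodomain helicase (CHD) and SMARCA families and the subunits of the BAF chromatin remodelling complexes, together with the other genes of the AT-rich interaction domain (ARID) family. Members were taken by symbol, as every gene named Chd followed by 1 digit, Smarca to Smarce, or Arid1 to Arid5. In all, 34 symbols were found, of which 32 are protein-coding genes and 2 (Smarca5-ps and Smarce1-ps1) are pseudogenes. The table of P-body and cytoplasm libraries listed 33 of them among 25239 genes, that of polysome and total RNA libraries held 33 among 25229 and that of Ago2 KO libraries all 34 among 48440. Counts of members below are over the 32 coding genes. By role they comprise 2 BAF ATPases, 3 ARID subunits of BAF or PBAF, 7 core and accessory BAF subunits, 2 ISWI ATPases, 2 other SMARCA ATPases, 9 CHD ATPases and 7 other ARID proteins.

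Chromatin remodellers use the energy of ATP hydrolysis to slide, eject or exchange nucleosomes, and so govern which DNA sequences are open to transcription factors. BAF, the mammalian SWI/SNF complex, is built around a single ATPase, SMARCA4 (BRG1) or SMARCA2 (BRM), and exists as ARID1-containing and ARID2-containing (PBAF) assemblies. An ES cell form of BAF that relies on SMARCA4, ARID1A and SMARCC1 is known to support pluripotency, and subunits are exchanged during differentiation. P-bodies are cytoplasmic condensates that hold untranslated mRNA, and the RNA helicase DDX6 is needed to keep them assembled.

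RNA was sequenced from sorted P-bodies and from cytoplasm of 6 kinds of mouse cells, with 2 libraries per group, and from polysomes and total RNA of naive ES cells, with 3 libraries per group. The cytoplasm libraries came from the fraction before sorting, a resuspended pellet of the lysate cleared of nuclei. They thus still held P-bodies, so enrichment sets a part against the whole it was sorted from. Cytoplasmic levels below are levels in that fraction. All cells used for P-body sorting carried a lentiviral GFP-LSM14A construct that marks P-bodies, and the ES cells were an F1 hybrid line. Naive ES cells were kept with 2 kinase inhibitors and LIF, and primed ES cells with activin A and bFGF. MEFs were embryonic fibroblasts that had not been induced to reprogram. Whether they carried the cassette described next is not stated for this group in the sources used here. Day 3 cells were MEFs that carried a doxycycline-inducible Oct4, Klf4, Sox2 and Myc cassette with an rtTA transactivator and a Pou5f1 reporter, taken 3 days after induction with either a control or a Nudt21 shRNA. Nudt21 encodes a polyadenylation factor. Ago2 KO cells were naive ES cells that lack the Argonaute protein AGO2, made with paired CRISPR cuts and single-cell sorting, and how many clones were sequenced is not given in the sources used here. The matching wild-type libraries were not analysed here. In the polysome experiment both groups were ES cells, derived as single-cell clones, in which both copies of Ddx6 carry a degradable tag on top of GFP-LSM14A. The DDX6 degron group received the degrader dTAG-13 for 6 hours and the control group did not. Cycloheximide held ribosomes on mRNA in both. The polysome libraries came from all ribosome-containing fractions of a sucrose gradient, pooled. Total RNA was an aliquot of the lysate after a spin that cleared it. How much P-body RNA that spin removed was not tested.

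Libraries held 6769731 to 31185874 assigned reads, with the naive and primed fractions shallowest at 6769731 to 12772246. Marker sums followed the labels: 6 naive markers summed to 1885 to 2208 CPM (counts scaled to the size of the library) in naive libraries against 251 to 298 in primed ones, and 7 fibroblast markers to 12978 to 40105 CPM in MEFs. The MEF P-body libraries also held 4758 and 6790 CPM of 5 nuclear-retained RNAs, against 980 and 1061 in MEF cytoplasm, and 6.24 and 90.2 CPM of 8 lung epithelial genes, which stood at 0 and 0.0166 in MEF cytoplasm. Nuclear-retained RNAs were also higher in naive P-bodies, at 543 and 522 CPM against 200 and 278 in the cytoplasm, and lower in primed P-bodies, at 673 and 619 against 1095 and 869. They stood at 655 to 660 CPM in Nudt21 knockdown P-bodies against 1087 to 1092 in the cytoplasm, at 1540 to 1862 against 1438 to 1447 in the day 3 control and at 627 to 663 against 179 to 492 in Ago2 KO cells. Polysomes held 530 to 692 CPM of them and total RNA 402 to 513. The 10 top genes held 25% and 41.6% of the reads of the Ago2 KO cytoplasm libraries, against 13% and 17.8% in the P-body libraries. The degrader acts on DDX6 protein, so Ddx6 mRNA does not check that treatment. The part of these differences in the results below was not tested.

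The sequence of the ATPase genes themselves is shown first. Over whole coding sequences, the base at the third codon position ran alongside P-body enrichment in naive ES cells. Each line gives 60 bases of coding sequence around the loop that binds the phosphates of ATP (Walker A), from GENCODE M21 transcripts on mm10, 5′ to 3′, with capitals marking codons that end in A or T.
Smarca4: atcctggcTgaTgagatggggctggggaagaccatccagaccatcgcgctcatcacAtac
Smarca2: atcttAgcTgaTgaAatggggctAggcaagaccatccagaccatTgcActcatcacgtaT
Chd4: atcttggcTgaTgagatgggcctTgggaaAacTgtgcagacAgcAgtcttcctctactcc
Chd2: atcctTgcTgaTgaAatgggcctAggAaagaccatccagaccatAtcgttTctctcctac
Chd9: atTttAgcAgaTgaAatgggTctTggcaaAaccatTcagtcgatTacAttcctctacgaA
Smarca5: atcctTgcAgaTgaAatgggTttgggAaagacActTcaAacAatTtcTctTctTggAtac
The Smarca4 and Smarca2 windows encode the same 20 residues, with 3 and 8 codons ending in A or T. Chd9 has 12 such codons and Smarca5 has 15, the most of the 15 member ATPases. These short windows do not follow enrichment gene by gene. Chd2 has 8 such codons, as Smarca2 does, and in naive P-bodies Chd2 was enriched while Smarca2 and Smarca5 were not called. Across whole coding sequences, G or C at the third position (GC3) ran from 36.5% in Arid4b to 76.1% in Chd5, with a median of 59.9%, against a median of 61.3% over all 14269 genes with a value. Coding sequences were long, with a median of 3714 bases against 1404 over all genes.

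As a sum, the members took a larger share of P-body than of cytoplasmic reads in naive ES cells. In primed cells the shares were close, and in MEFs the P-body share was the smaller. Most of the naive gain came from Arid4b, Arid4a and Chd2, while other members fell, Smarca4 among them. Summed over members and the pseudogene Smarca5-ps, naive P-body libraries stood at 4709 and 4663 CPM and naive cytoplasm at 2931 and 2837. Primed P-bodies stood at 4140 and 4253 CPM against 3986 and 4119, and MEF P-bodies at 1502 and 1793 against 2363.8 and 2362.5. The P-body and cytoplasm ranges did not overlap in any of these 3 cell types.

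**Figure D1:**
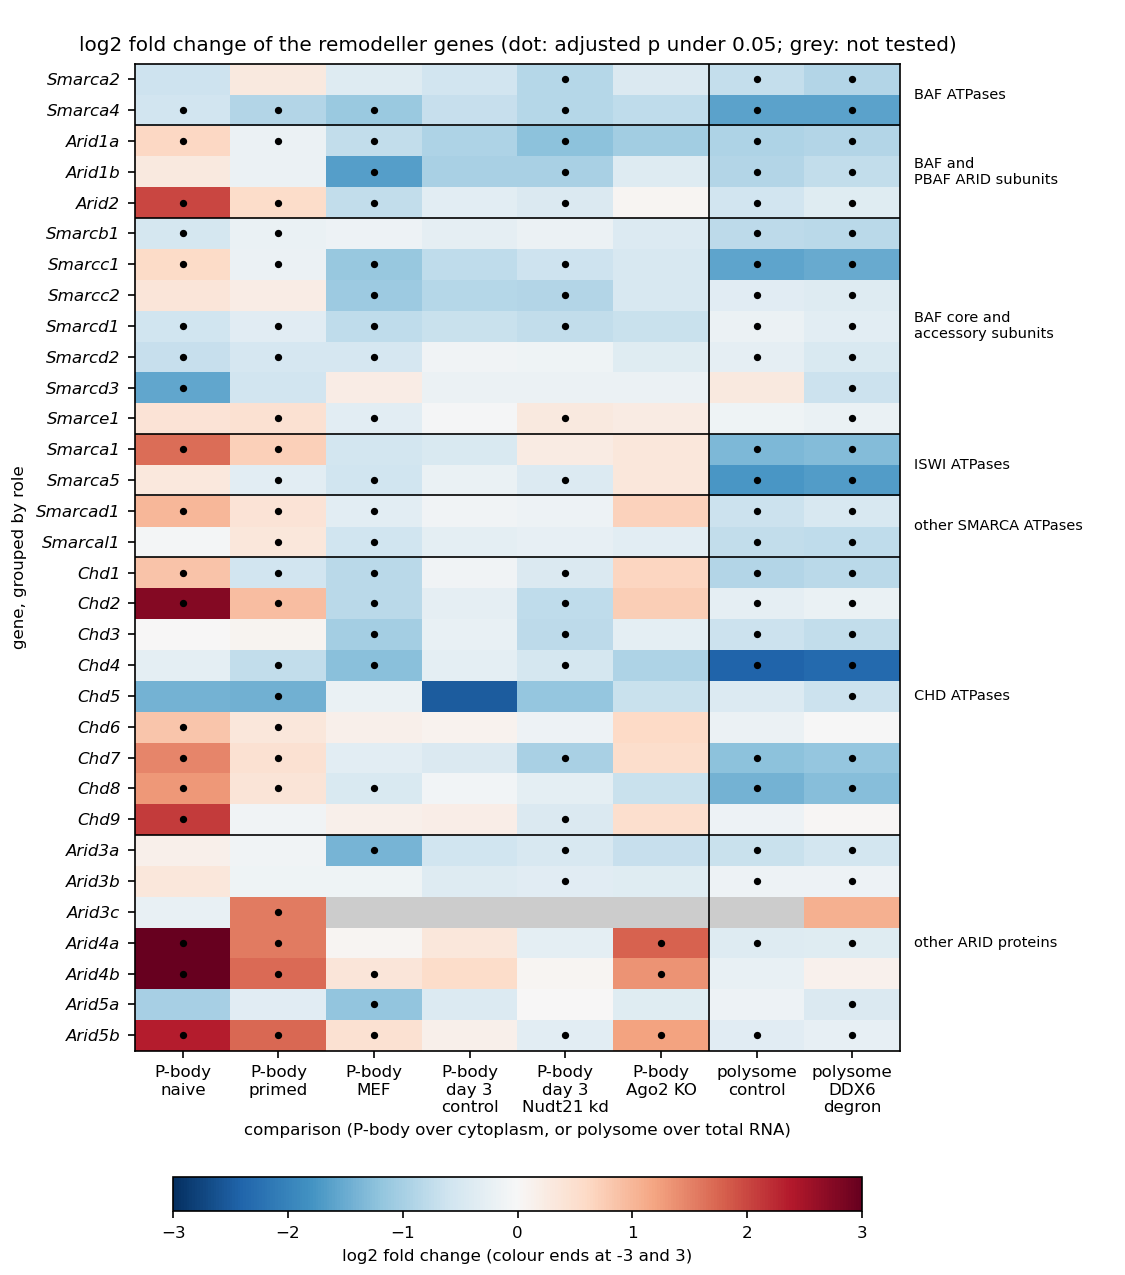
Log2 fold changes of the 32 coding members (rows, grouped by role) in 6 P-body comparisons and 2 polysome comparisons (columns), red for higher and blue for lower, with a dot at an adjusted p under 0.05. The naive column holds 14 called increases, the MEF column 19 called decreases, and both polysome columns only decreases among the called members.

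In naive ES cells 14 of 32 members were enriched in P-bodies (edgeR quasi-likelihood test, Benjamini-Hochberg adjusted p under 0.05 over all genes) and 5 were depleted, where 22.6% of all 15630 genes tested were enriched and 15.4% depleted. The median log2 fold change of members was 0.36, against -0.06 over all genes. Both of the ARID4 genes, whose proteins belong to a SIN3 histone deacetylase complex, led the list. The P-body libraries of Arid4b (chr13:14063232-14199603, plus strand) held 574 and 534 CPM and the cytoplasmic ones 26.1 and 43.3, which is a log2 fold change of 4.0 (SE 0.26, adjusted p = 0.0005 by edgeR). Those of Arid4a (chr12:71015990-71098592, plus strand) held 559 and 545 CPM against 28.1 and 55.5, which is a log2 fold change of 3.72 (SE 0.33, adjusted p = 0.00103 by edgeR). For both genes each P-body library was far above each cytoplasmic one, and the cytoplasmic pair differed by more than the P-body pair.

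Of the 9 CHD ATPases, which share chromodomains that bind histones or DNA, 6 were enriched in naive P-bodies and 0 were depleted. Chd2, which is linked to transcribed chromatin (chr7:73426638-73541830, minus strand), had 492 and 482 CPM in P-bodies and 61.2 and 82.1 CPM in the cytoplasm (log2 fold change 2.76, SE 0.17, adjusted p = 0.000437 by edgeR). Its P-body libraries agreed closely. Chd9 followed at 2.09, Chd7, mutated in CHARGE syndrome, at 1.47, and Chd8, a regulator of WNT target genes, at 1.31. Chd1, which binds methylated histone H3 and keeps ES cell chromatin open, stood at 0.85 and Chd6 at 0.84. The 3 CHD genes that were not called were Chd3 (0.02), Chd4 (-0.30) and Chd5 (-1.42), which encode the alternative ATPases of the NuRD deacetylase complex.

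The BAF genes split by subunit. Smarca4 (chr9:21616169-21704230, plus strand), the BAF ATPase of ES cells, had 293 and 290 CPM in naive P-bodies and 471 and 399 CPM in the cytoplasm (log2 fold change -0.58, SE 0.12, adjusted p = 0.0147 by edgeR). Arid1a (chr4:133679008-133756769, minus strand), the DNA-binding subunit of the canonical BAF complex, had 166 and 156 CPM in P-bodies and 100 and 109 CPM in the cytoplasm (log2 fold change 0.62, SE 0.10, adjusted p = 0.00795 by edgeR). The fractions did not overlap for either gene, and the 2 genes lay on opposite sides of 0.

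Arid2, the PBAF counterpart of Arid1a, rose further, from 84.7 ± 5.90 CPM in the cytoplasm to 341 ± 4.84 CPM in P-bodies (SD, n = 2), a log2 fold change of 2.01. Smarcc1 (BAF155), the core scaffold subunit, was enriched at 0.58. The core subunit Smarcb1 was depleted at -0.52. The SMARCD accessory subunits were all 3 depleted: Smarcd2 had 80.1 and 83.6 CPM in P-bodies and 140 and 127 CPM in the cytoplasm (log2 fold change -0.70, SE 0.11, adjusted p = 0.0056 by edgeR). Smarcd1 had 37.5 and 42.4 CPM against 61.3 and 60.4 (-0.60, SE 0.12, adjusted p = 0.014 by edgeR), and Smarcd3, at only 21 and 36 reads in P-bodies, stood at -1.57. Among the remaining ATPases, the ISWI gene Smarca1 (1.68, at 7.86 ± 0.699 CPM in P-bodies) and Smarcad1 (1.0), which acts at DNA breaks and in heterochromatin upkeep, were enriched. Smarca5 (SNF2H), the main ISWI ATPase, stood at 0.31 and was not called.

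The pseudogene Smarca5-ps was also enriched (0.85, adjusted p = 0.0366 by edgeR), but its reads cannot be told apart from those of Smarca5 with certainty. Smarce1-ps1 had 2 to 11 reads per library where it was listed. Leaving out either naive P-body library, with the lone library assumed to vary like the other group, gave 9 enriched and 0 depleted members. Smarca4, Arid1a, Smarcd1 and Smarcd2 then missed the threshold, with log2 fold changes of -0.57 to -0.58, 0.58 to 0.67, -0.52 to -0.69 and -0.67 to -0.73.

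Of the 76 other remodelling genes that were listed by complex, 25 of 74 tested were enriched in naive P-bodies and 11 depleted. The ISWI partners had 5 of 9 enriched, among them Baz2b at a log2 fold change of 3.37. The NuRD partners had 2 of 12 enriched and 2 depleted, with Gatad2b at 3.50. Of 13 other Snf2-type ATPases 8 were enriched and 0 depleted. Of 16 other BAF and PBAF subunits 4 were enriched and 1 depleted, and of 24 INO80, SRCAP and TIP60 subunits 6 were enriched and 7 depleted, with Ep400 lowest at -1.0 and Ino80e at -0.86.

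Among members, naive P-body enrichment fell with GC3, with a Spearman correlation of -0.77 over 32 genes, against -0.54 over all genes. This correlation is across genes of the same libraries and carries no test. Of 17 members with GC3 under 60%, 12 were enriched and 0 depleted, where 42.3% of all such genes were enriched. Of 15 members at or above 60%, 2 were enriched and 5 depleted, where 7.08% of all such genes were enriched and 24.7% depleted. The 2 enriched members at or above 60% were Arid5b (GC3 of 61.1%, log2 fold change 2.36) and Arid1a (64.3%, 0.62), and Smarca5 (38.6%, 0.31) was among those under 60% that were not called. The GC content of the whole longest transcript gave -0.73 over members and -0.60 over all genes in naive cells. With GC3 the correlation over members was -0.52 in primed cells, -0.62 in Ago2 KO cells, -0.52 and -0.37 at day 3 with the control and the Nudt21 shRNA and -0.22 in MEFs, against -0.32, -0.40, -0.20, -0.24 and -0.05 over all genes.

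**Figure D2:**
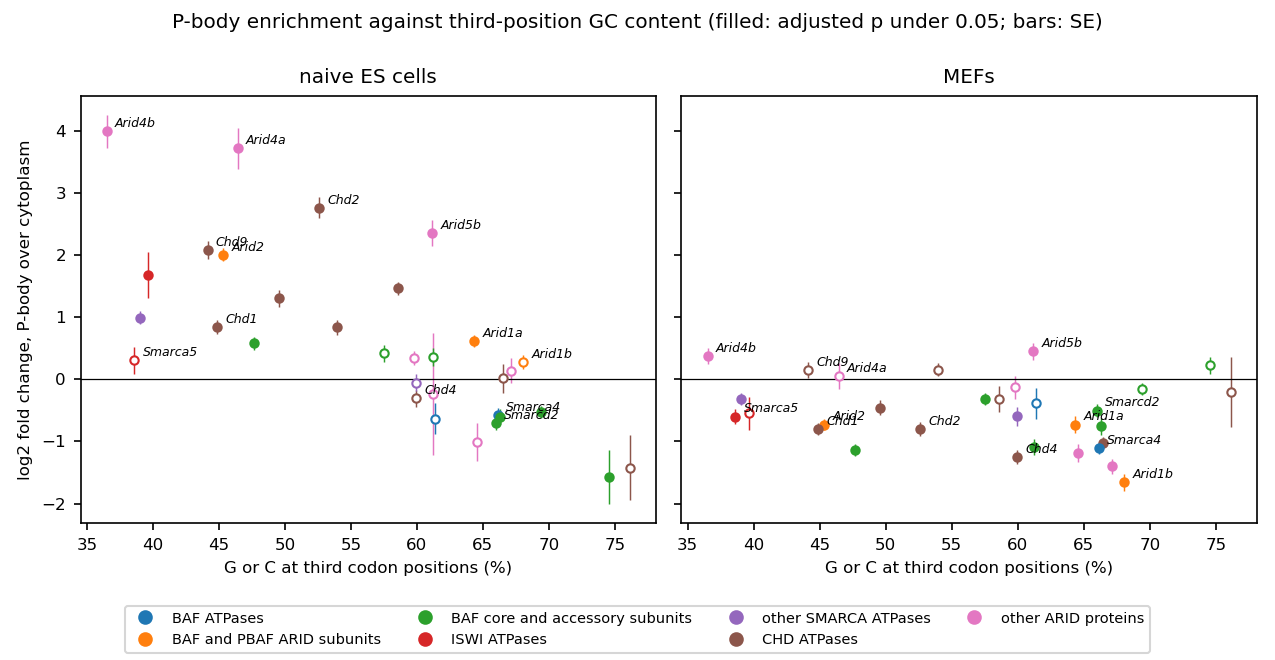
Log2 fold change of P-body over cytoplasm with its SE (vertical axis) against GC3 in percent (horizontal axis) for the members in naive ES cells and in MEFs, coloured by role, with filled points at an adjusted p under 0.05. In naive cells the values descend from Arid4b at 36.5% to Smarcd3 at 74.6% and Chd5 at 76.1%, and in MEFs they lie between -1.66 and 0.45.

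In primed ES cells 13 members were enriched and 10 depleted, where 26.5% and 24.2% of 16177 genes were, and the medians were both near 0 (-0.00 for members and 0.00 over all genes). The same ARID genes led. Arid5b, a subunit of a histone demethylase complex, had 58.0 and 62.9 CPM in primed P-bodies and 16.1 and 20.3 CPM in the cytoplasm (log2 fold change 1.72, SE 0.12, adjusted p = 1.55e-07 by edgeR). Arid4b had 344 and 344 CPM against 101 and 111 (1.70, SE 0.06, adjusted p = 1e-09 by edgeR), and Arid4a 248 and 231 against 79.1 and 82.7 (1.57, SE 0.07, adjusted p = 2.95e-09 by edgeR). All 3 were chosen among genes without overlap between the fractions.

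Among members with a mean of at least 10 CPM, the depleted ones in primed cells were led by ATPases. The low-level Chd5 was depleted as well, and the lowest value of a CHD ATPase was -1.44. Smarca4 had 304 and 306 CPM in P-bodies and 538 and 586 CPM in the cytoplasm (log2 fold change -0.88, SE 0.05, adjusted p = 4.83e-08 by edgeR). Chd4, the NuRD ATPase, had 107 and 113 CPM against 174 and 190 (-0.73, SE 0.07, adjusted p = 2.74e-06 by edgeR). Chd1 had 107 and 120 CPM against 178 and 157 (-0.57, SE 0.08, adjusted p = 9.06e-05 by edgeR). Both P-body libraries of Smarca4 lay below both cytoplasmic ones, and Chd4 and Chd1 were chosen among genes without overlap. Arid1a, at 144 and 145 CPM against 158 and 167, was depleted by a small margin (-0.17, SE 0.06, adjusted p = 0.0459 by edgeR). That call was lost in DESeq2 (-0.17), with no filter (-0.15) and with all groups of the table in a single fit (-0.15). It was also lost without either primed P-body library or without cytoplasm replicate 2, at -0.13 to -0.18. Arid3c was called enriched at 24 and 27 reads against 3 and 8, so its level in these cells is poorly known. With all groups of the table in a single fit, 10 members were enriched and 4 depleted.

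Of the 14 members enriched in naive P-bodies, 10 were enriched in primed P-bodies as well, 3 (Arid1a, Chd1 and Smarcc1) were depleted there and Chd9 was not called. The Arid1a depletion was lost in DESeq2 and other fits, as given above. Of all 3513 genes enriched in naive P-bodies and tested in primed cells, 68.2% were enriched there and 6.89% depleted. Smarca4, Smarcb1, Smarcd1 and Smarcd2 were depleted in both, which is 4 of the 5 members depleted in naive cells, against 52.8% of 2338 genes. Among the other remodelling genes 32 of 75 were enriched and 21 depleted in primed cells, with Mbd2 at 3.20 and Baz2b at 2.41 highest and Ep400 at -1.23 and Srcap at -1.02 lowest.

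**Figure D3:**
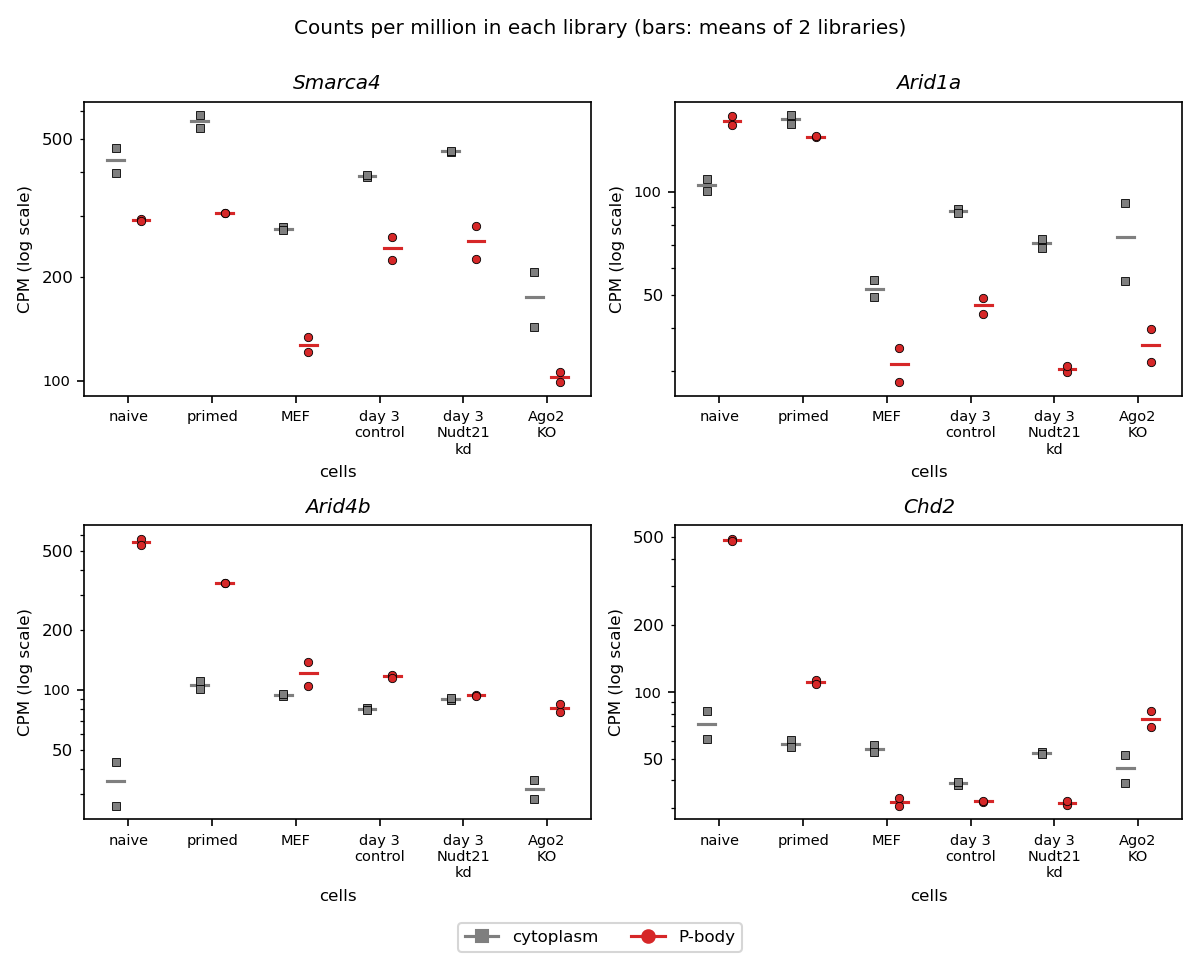
CPM of Smarca4, Arid1a, Arid4b and Chd2 in each P-body (red circles) and cytoplasm (grey squares) library of 6 kinds of cells, on a log axis, with bars at the means of 2 libraries and each kind of cell scaled by itself. Smarca4 lies lower in P-bodies in all 6, and Arid4b and Chd2 lie above the cytoplasm by the widest margin in naive cells.

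The difference in enrichment between naive and primed cells was tested directly, as an interaction over the 4 groups. It was positive for 11 members and negative for 2, where 13.9% and 11.4% of 17199 genes were called, with a median of 0.33 for members and -0.04 over all genes. Arid4b was more enriched in naive cells by 2.15 on the log2 scale (SE 0.26, adjusted p = 0.000808 by edgeR) and Arid4a by 2.01 (SE 0.34, adjusted p = 0.00319 by edgeR). Chd9 differed by 2.04 (SE 0.15, adjusted p = 0.000141 by edgeR): it had 72.1 and 64.7 CPM in naive P-bodies against 16.2 and 19.0 in naive cytoplasm, and 220 and 236 CPM in primed P-bodies against 244 and 239 in primed cytoplasm. Chd9 thus stood higher in both primed fractions than in either naive one, and its P-body enrichment was called in naive cells and not in primed ones (-0.09).

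Arid1a differed by 0.65 (SE 0.12, adjusted p = 0.00496 by edgeR), with 170 and 163 CPM in naive P-bodies against 113 and 124 in naive cytoplasm and 133 and 134 CPM in primed P-bodies against 145 and 153. For Smarca4 the difference was 0.16 (SE 0.13, adjusted p = 0.407 by edgeR) and was not called, except without naive cytoplasm replicate 1 (0.28). Smarca4 went from 532 and 454 CPM in cytoplasm to 300 and 303 in P-bodies in naive cells, and from 496 and 538 CPM to 282 and 284 in primed cells.

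The negative differences belonged to Smarcb1 (-0.48, SE 0.12, adjusted p = 0.023 by edgeR) and Smarca2 (-1.07, SE 0.34, adjusted p = 0.046 by edgeR). Smarca2, the alternative BAF ATPase, had 13.4 and 12.4 CPM in naive P-bodies against 17.3 and 26.5 in naive cytoplasm, and 6.41 and 6.03 CPM against 4.69 and 5.34 in primed cells. Its mean reached 10 CPM only through the naive libraries. Both calls were near the threshold and were lost in DESeq2 (adjusted p = 0.0854 for Smarca2 and 0.077 for Smarcb1). Both were also lost on leaving out any 1 of the 4 P-body libraries (-0.91 to -1.12 for Smarca2 and -0.32 to -0.51 for Smarcb1) or primed cytoplasm replicate 1 (-0.87 and -0.29), and Smarca2 without primed cytoplasm replicate 2 (-1.17). Leaving out a naive cytoplasm library (replicate 1 or 2) raised the number of called members to 20 or 23. Of the other remodelling genes 16 of 75 were more and 11 less enriched in naive cells, led by Pbrm1 (1.49), the polybromo subunit of PBAF, and Hells (1.43), and by Mta1 (-2.42) and Tfpt (-1.13).

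In MEFs more members were depleted from P-bodies than enriched. Of 31 tested, 19 were depleted from P-bodies and 2 enriched, where 28.7% of 16198 genes were depleted and 26.6% enriched, and the member median was -0.55 against 0.03. Arid1b had 18.3 and 23.3 CPM in MEF P-bodies and 68.5 and 63.1 CPM in the cytoplasm (log2 fold change -1.66, SE 0.13, adjusted p = 1.15e-05 by edgeR). Arid3a, which binds AT-rich DNA, had 16.9 and 16.5 CPM against 47.2 and 40.7 (-1.40, SE 0.12, adjusted p = 1.62e-05 by edgeR). Chd4 had 53.8 and 63.9 CPM against 141 and 139 (-1.25, SE 0.11, adjusted p = 1.54e-05 by edgeR). Arid1b, Arid3a and Chd4 were chosen among genes without overlap between the fractions.

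All 3 ARID subunits of BAF and PBAF and 5 of the 7 core and accessory subunits were depleted from MEF P-bodies. Smarca4 had 121 and 133 CPM in P-bodies and 278 and 273 CPM in the cytoplasm (log2 fold change -1.11, SE 0.09, adjusted p = 1.2e-05 by edgeR). Arid1a had 27.8 and 35.1 CPM against 49.2 and 55.1 (-0.73, SE 0.13, adjusted p = 0.00134 by edgeR). The paralogous scaffolds Smarcc1 (-1.14) and Smarcc2 (-1.09) moved alike. Of the CHD genes 5 of 9 were depleted, among them Chd3 (-1.02), Chd1 (-0.80) and Chd2 (-0.80).

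The 2 enriched members in MEFs were Arid5b, with 110 and 153 CPM in P-bodies against 96.9 and 95.2 in the cytoplasm (log2 fold change 0.45, SE 0.14, adjusted p = 0.0218 by edgeR), and Arid4b, with 105 and 138 against 92.7 and 94.9 (0.37, SE 0.13, adjusted p = 0.0345 by edgeR). Their P-body libraries differed from each other by more than the cytoplasmic pair did. Both were lost in a single fit over the table (0.41 and 0.33) and without either cytoplasm library, Arid4b was also lost without P-body replicate 2 (0.17), and without MEF cytoplasm replicate 2 the calls were 13 depleted and 0 enriched. Arid3c had fewer than 10 reads in MEFs and was not tested.

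The MEF depletion ran alongside coding length in the transcriptome as a whole. Of all 2040 genes with a coding sequence of at least 3000 bases, 58.7% were depleted from MEF P-bodies, and of 22 such members 13 were. Of shorter genes 26.6% were depleted, and of 9 shorter members 6 were. In naive cells the long class was not depleted, with 26.7% of 2030 genes enriched and 20% depleted, while 14 of 22 long members were enriched and 1 was depleted. In MEFs 20 of 74 other remodelling genes were enriched and 26 depleted, with Tfpt and Chrac1 both at 1.36 and Srcap (-1.59) and Mta2 (-1.51) at the other end. The other Snf2-type ATPases had 10 of 13 depleted and 1 enriched.

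Among the 14 members enriched in naive P-bodies 7 were depleted in MEF P-bodies: Arid1a, Arid2, Chd1, Chd2, Chd8, Smarcad1 and Smarcc1. Of all 3402 genes enriched in naive P-bodies and tested in MEFs 35.1% were depleted there, and of the 534 among them with a coding sequence of at least 3000 bases, as all 14 members have, 57.9% were. As a direct test, enrichment in naive cells exceeded that in MEFs for 20 of 32 members and fell short for 2, where 21.5% and 19.8% of 18143 genes were called, with a median of 0.98 for members and -0.17 over all genes. The 4-group fit shares its naive libraries with the naive and primed comparison, so both differences rest in part on the same libraries. Arid4a (3.47, SE 0.44, adjusted p = 0.000184 by edgeR), Arid4b (3.43, SE 0.31, adjusted p = 2.69e-05 by edgeR) and Chd2 (3.37, SE 0.21, adjusted p = 7.93e-06 by edgeR) differed most.

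In that fit Chd2 had 423 and 419 CPM in naive P-bodies and 59.8 and 81.9 in naive cytoplasm, and 33.1 and 35.9 CPM in MEF P-bodies against 62.4 and 57.9 in MEF cytoplasm. Its cytoplasmic level did not pass the threshold between these cells (log2 fold change 0.24), and its P-body libraries lay far apart. Arid4b had 493 and 464 CPM in naive P-bodies against 25.5 and 43.2 in the cytoplasm, and 113 and 150 against 100 and 103 in MEFs. Arid4a had 480 and 474 CPM against 27.5 and 55.4, and 59.2 and 104 against 81.2 and 75.5 in MEFs. For the ARID4 genes the cytoplasm was lower and the P-body higher in naive cells than in MEFs.

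Arid1a differed by 1.16 (SE 0.19, adjusted p = 0.000825 by edgeR), with 142 and 136 CPM in naive P-bodies against 98.1 and 109 in the cytoplasm, and 30.0 and 38.0 against 53.2 and 59.7 in MEFs. Smarca4 differed by 0.34 (SE 0.15, adjusted p = 0.0974 by edgeR) and was not called. It was called without filtering low genes (0.60), in a single fit over the table (0.58) and without naive cytoplasm replicate 1, either MEF P-body library or MEF cytoplasm replicate 2 (0.45 to 0.63). Smarcb1 (-0.55, SE 0.15, adjusted p = 0.0129 by edgeR) and Smarcd3 (-1.98, SE 0.43, adjusted p = 0.00463 by edgeR) were less enriched in naive cells. The Smarcb1 call was lost without naive P-body replicate 2 or any MEF library, at -0.25 to -0.51. Smarcd3, a SMARCD paralogue known from heart and muscle, had 1.82 and 2.68 CPM in naive P-bodies against 10.1 and 5.24 in the cytoplasm, and 16.5 and 17.2 against 15 and 14 in MEFs. Its mean reached 10 CPM only through the MEF libraries, so its naive side rests on few reads. All 13 other Snf2-type ATPases were also more enriched in naive cells than in MEFs. Over all 75 other remodelling genes 29 were more and 19 less enriched, with Gatad2b (4.0) and Baz2b (3.49) highest and Tfpt (-2.37) and Ino80b (-1.69) lowest.

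At day 3 of reprogramming with the control shRNA no member passed the threshold in edgeR, where 0.196% of 15786 genes were enriched and 0.45% depleted. At an unadjusted p under 0.05 there were 10 members, against 24.7% of all genes. DESeq2 called 8, of which 1 was enriched and 7 depleted, against 19.3% of the genes it gave an adjusted p. The median of 31 members was -0.28 against -0.01. Arid1a had 49.1 and 44.0 CPM in P-bodies and 89.0 and 86.9 CPM in the cytoplasm (log2 fold change -0.92, SE 0.13, adjusted p = 0.0504 by edgeR), and Smarca4 260 and 223 CPM against 387 and 394 (-0.69, SE 0.12, adjusted p = 0.0571 by edgeR). The fractions did not overlap for either gene. Without P-body replicate 1 there were 21 called members and without P-body replicate 2 there were 13, and both genes were then called, Arid1a at -1.0 and -0.84 and Smarca4 at -0.81 and -0.59. Of 75 other remodelling genes only Srcap was called, at -1.61 (20 had an unadjusted p under 0.05).

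With the Nudt21 shRNA, 18 of 31 members were depleted and 1 was enriched, where 12.8% and 9.04% of 15995 genes were, and the median was -0.43 against 0.00. Nudt21 mRNA itself stood at 4.99 to 5.94 CPM in these libraries against 89.1 to 115 CPM in the day 3 control. Arid1a had 29.8 and 31 CPM in P-bodies and 72.7 and 68.7 CPM in the cytoplasm (log2 fold change -1.22, SE 0.11, adjusted p = 0.000126 by edgeR). Arid1b had 31.5 and 42.0 CPM against 67.7 and 77.1 (-0.98, SE 0.14, adjusted p = 0.0014 by edgeR), and Chd7 had 41.1 and 56.5 against 92.4 and 101 (-0.98, SE 0.14, adjusted p = 0.00128 by edgeR). Arid1a lay lower in both P-body libraries, and Arid1b and Chd7 were chosen among genes without overlap.

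Smarca4 had 225 and 280 CPM in Nudt21 knockdown P-bodies and 458 and 462 CPM in the cytoplasm (log2 fold change -0.86, SE 0.11, adjusted p = 0.000742 by edgeR). Smarce1, a DNA-bending BAF subunit, was the enriched member, with 146 and 141 CPM against 114 and 119 (0.30, SE 0.09, adjusted p = 0.0382 by edgeR). That call was lost without either cytoplasm library. Without cytoplasm replicate 1 or 2 there were 11 and 10 called members, all depleted. Of 74 other remodelling genes 3 were enriched, with Actr6 at 0.49 and Chrac1 at 0.46, and 15 depleted, with Srcap at -1.40 and Cdk2ap1 at -1.27.

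The difference between the Nudt21 knockdown and the day 3 control was not called for any member (edgeR and DESeq2 both 0), where edgeR called 0% of 16973 genes higher and 0.0118% lower and DESeq2 called 0.287%. At an unadjusted p under 0.05 there were 8 members, against 4.83% of all genes. Smarca4 differed by -0.14 (SE 0.18, adjusted p = 0.915 by edgeR) and Arid1a by -0.28 (SE 0.17, adjusted p = 0.894 by edgeR). Of the 8, 7 lay below 0, among them Chd9 and Arid4a (both -0.59), and Smarce1 lay above (0.35). Without control P-body replicate 1, 1 member was called higher and 5 lower. None of the other remodelling genes was called (11 of 75 at an unadjusted p under 0.05).

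In Ago2 KO ES cells the called members were ARID genes, and another ARID gene, Arid1a, had the lowest member value (-1.05, not called). Only 3 of 31 members were enriched and 0 depleted, where 5.47% and 1.05% of 16808 genes were, and 11 members had an unadjusted p under 0.05, against 24% of all genes. DESeq2 called 3 enriched and 2 depleted, against 13.8% of genes in either direction. Ago2 mRNA stood at 2.57 to 4.52 CPM. Arid4a had 79.8 and 78.2 CPM in P-bodies and 22.8 and 23.4 CPM in the cytoplasm (log2 fold change 1.77, SE 0.23, adjusted p = 0.0034 by edgeR). Arid4b had 77.7 and 84.5 CPM against 28.4 and 35.2 (1.35, SE 0.24, adjusted p = 0.0137 by edgeR), and Arid5b 62.0 and 58.8 against 31.1 and 21.5 (1.20, SE 0.26, adjusted p = 0.0298 by edgeR). These genes were chosen among those without overlap between the fractions.

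Smarca4 had 99.0 and 106 CPM in Ago2 KO P-bodies and 143 and 206 CPM in the cytoplasm (log2 fold change -0.77, SE 0.28, adjusted p = 0.138 by edgeR), and Arid1a 31.8 and 39.7 CPM against 54.9 and 92.8 (-1.05, SE 0.30, adjusted p = 0.0735 by edgeR). The cytoplasmic libraries differed widely for both genes. Arid1a was called without cytoplasm replicate 1 (-1.49) or 2 (-0.65) and in DESeq2 (-1.09), and Smarca4 without cytoplasm replicate 1 (-1.12). Leaving out 1 library gave 1 to 13 called members: 1 without either P-body library, 13 without cytoplasm replicate 1 and 11 without cytoplasm replicate 2. The Arid4b and Arid5b calls were lost without either P-body library. Of the other remodelling genes 6 of 73 were enriched and 1 depleted, with Hells (2.04) and Actr6 (1.51) highest and Srcap (-2.61) lowest. These libraries form a table of their own, so their enrichment was not compared with that of naive cells by a test.

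Most remodeller mRNAs were less abundant on polysomes than in total RNA. Ribosome occupancy here means RNA of all pooled ribosome-containing fractions, called polysomes here, over total RNA of the cleared lysate. Since both are scaled to the same total, it is relative to other mRNAs. In control naive ES cells 24 of 31 members had lower and 0 higher occupancy, where 24.1% of 15411 genes were lower and 18.8% higher, and the median was -0.64 against 0.02. Summed over members and Smarca5-ps, the polysome libraries stood at 1944 to 2100 CPM and the total RNA libraries at 3199 to 3543 CPM, so the ranges did not overlap.

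Chd4 (chr6:125095981-125130591, plus strand) was the lowest. It had 95.7, 90.2 and 91.5 CPM on polysomes and 490, 516 and 455 CPM in total RNA, a log2 fold change of -2.40 (SE 0.07, adjusted p = 2.56e-13 by edgeR). Smarca5 had 111, 105 and 108 CPM against 398, 365 and 320 (-1.74, SE 0.08, adjusted p = 2e-11 by edgeR), and Smarca4 had 96.0, 92.6 and 93.5 CPM against 283, 293 and 282 (-1.60, SE 0.06, adjusted p = 3.41e-12 by edgeR). For all 3 ATPases the polysome libraries agreed closely, and those of Smarca4 lay far below every total RNA library. Chd4 and Smarca5 were chosen among genes without overlap.

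Arid1a had 136, 134 and 116 CPM on polysomes against 252, 258 and 228 CPM in total RNA (log2 fold change -0.93, SE 0.07, adjusted p = 2.3e-08 by edgeR). Smarcc1 stood at -1.59, Chd8 at -1.42, Smarca1 at -1.36 and Chd7 at -1.23. The 7 members that were not called included Arid4b (-0.22), Chd9 (-0.15), Chd6 (-0.18) and Smarce1 (-0.13), and the low-level genes Chd5, Arid5a and Smarcd3. Occupancy fell with coding length over all genes (Spearman -0.59 over 14279 genes) and less so among members (-0.31 over 31). Of 2009 genes with a coding sequence of at least 3000 bases 60.9% were lower, and of 22 such members 18 were. Of shorter genes 19.9% were lower, and of 9 shorter members 6 were.

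Enrichment in naive P-bodies and occupancy did not go together among members, with a Spearman correlation of -0.00 over 31 genes and 0.03 over 14701 genes. Occupancy was taken over RNA of a cleared lysate, and how much P-body RNA that lysate kept was not tested. Of the 14 members enriched in naive P-bodies 11 had lower occupancy, against 30.1% of 3463 such genes, and of the 5 depleted from them 4 did, against 33.6% of 2367. All 14 have coding sequences of at least 3000 bases, a class in which 60.9% of genes were lower. Arid4b and Chd9 were among the most P-body enriched and were not called for occupancy, whereas Smarca4 and Chd4 were depleted from P-bodies or not called and were the lowest on polysomes with Smarca5. Smarcc1, Chd8, Smarca1 and Chd7 were P-body enriched and also had lower occupancy. Of 74 other remodelling genes 37 were lower and 14 higher, with Hells (-1.35) and Baz1a (-1.23) lowest and Znhit1 (0.48) and Chrac1 (0.44) highest.

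**Figure D4:**
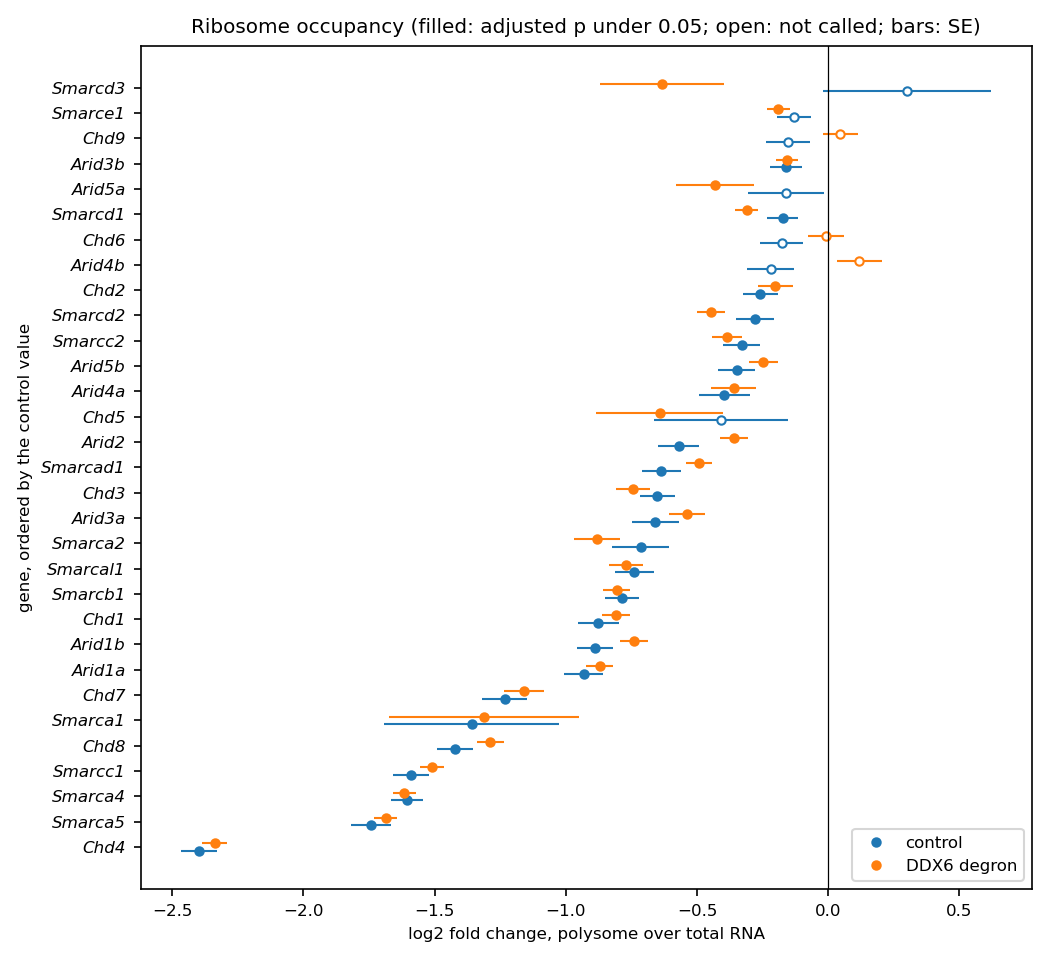
Log2 fold change of polysome-bound over total RNA with its SE (horizontal axis) for the 31 members tested in control cells, ordered by the control value, in control (blue) and DDX6 degron (orange) naive ES cells, with filled points at an adjusted p under 0.05. Chd4 lies lowest in both, at -2.40 and -2.34, and no member differed between control and degron cells past the threshold.

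After DDX6 loss 28 of 32 members had lower and 0 higher occupancy, where 26.8% of 15638 genes were lower and 24% higher, with a median of -0.59 against 0.02. All 24 members that were lower in control cells were lower here too, as were 94% of the 3716 genes lower in control cells. The pseudogene Smarca5-ps was called higher (0.50). Chd4 had 95.4, 98.2 and 105 CPM on polysomes against 507, 483 and 516 (log2 fold change -2.34, SE 0.05, adjusted p = 1.25e-20 by edgeR). Smarca5 had 106, 101 and 106 CPM against 335, 325 and 347 (-1.69, SE 0.04, adjusted p = 7.12e-19 by edgeR), and Smarca4 91.8, 93.6 and 90.6 CPM against 284, 280 and 282 (-1.61, SE 0.04, adjusted p = 6.41e-19 by edgeR). Arid1a had 111, 126 and 115 CPM against 212, 205 and 227 (-0.87, SE 0.05, adjusted p = 1.49e-12 by edgeR). No polysome library of Smarca4 or Arid1a reached the total RNA range, and Chd4 and Smarca5 were chosen among genes without overlap. Of 74 other remodelling genes 40 were lower and 16 higher, with Hells (-1.33) and Baz2a (-1.11) lowest and Ino80d (0.52) and Ino80c (0.48) highest.

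The change in occupancy on DDX6 loss was not called for any member, nor for any gene, by edgeR (0% of 16345 genes in either direction), and DESeq2 called 0 members and 0.0245% of genes. At an unadjusted p under 0.05, reached by 5.16% of all genes, there were 4 members: Smarcd3 (-0.94), Arid3c (5.27, at very few reads), Arid4b (0.34, SE 0.14) and Arid2 (0.21, SE 0.10). Smarca4 changed by -0.01 (SE 0.07, adjusted p = 0.991 by edgeR) and Arid1a by 0.06 (SE 0.10, adjusted p = 0.963 by edgeR). The member median was 0.05 against -0.01. None of the other remodelling genes was called (10 of 75 at an unadjusted p under 0.05).

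Total RNA of members did not pass the threshold on DDX6 loss in edgeR either, where 1.24% of 15380 genes rose and 2.07% fell. Unadjusted p values under 0.05 were found for 12 members, against 19.4% of all genes. DESeq2 called 5, all lower, against 7.85% of genes in either direction. Smarca4 had 266, 264 and 264 CPM after DDX6 loss and 267, 276 and 266 CPM in control cells (log2 fold change -0.03, SE 0.05, adjusted p = 0.809 by edgeR), with overlapping groups. Arid1a had 199, 193 and 213 CPM against 238, 243 and 215 (-0.20, SE 0.06, adjusted p = 0.0862 by edgeR), without overlap. Without control total RNA replicate 3, 13 members were called lower and 2 higher, Arid1a among the lower at -0.26. Of 74 other remodelling genes 0 rose and 5 fell, with Ino80d at -0.39 and Atrx at -0.38.

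The cytoplasmic level of some members differed between cell types, at shares close to those of all genes. In bulk RNA a different level per cell cannot be told apart from a different mix of cells. Between naive and primed cytoplasm 7 members were higher in naive cells and 8 lower, where 22.1% and 21.6% of 16125 genes were. Chd9 was lowest, at 16.6 and 19.4 CPM in naive and 251 and 245 CPM in primed cytoplasm (log2 fold change -3.79, SE 0.14, adjusted p = 0.00011 by edgeR). Chd7 had 92.6 and 102 CPM against 272 and 274 (-1.49, SE 0.11, adjusted p = 0.000532 by edgeR) and Chd6 37.8 and 36.6 against 94.2 and 92.3 (-1.33, SE 0.13, adjusted p = 0.00101 by edgeR). These 3 belong to the same CHD subfamily and were chosen among genes without overlap. Chd8, of that subfamily too, differed far less. Before TMM scaling it stood at 4.25 to 5.15 CPM per kilobase of transcript in naive cytoplasm and 5.29 to 5.68 in primed.

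Smarca2 was higher in naive cytoplasm, at 17.8 and 27.0 CPM against 4.82 and 5.48 in primed (log2 fold change 2.12, SE 0.29, adjusted p = 0.00305 by edgeR). Arid5b had 43.3 and 65.5 CPM against 15.3 and 19.1 (1.66, SE 0.25, adjusted p = 0.00413 by edgeR), and Arid3a 25.2 and 18.8 against 13.8 and 12.2 (0.76, SE 0.23, adjusted p = 0.0397 by edgeR). The naive pairs were spread more widely than the primed pairs. Smarca4 stood at -0.08 (SE 0.13, adjusted p = 0.655 by edgeR) with overlapping groups, or at -0.20 (then called) and 0.02 without naive replicate 1 or 2, and Arid1a at -0.34 (SE 0.12, adjusted p = 0.0583 by edgeR) with 116 and 126 CPM against 149 and 157. Without primed replicate 1 or 2, 6 or 9 members were called, and Arid3a missed the threshold each time (0.84 and 0.66) and Arid5b without primed replicate 1 (1.5). Without a naive library Arid1a was called lower in naive cells (-0.28 and -0.42). Of 75 other remodelling genes 15 were higher and 12 lower in naive cytoplasm, led by Bicral (2.18) and Hdac1 (1.20) and by Pbrm1 (-1.42) and Bptf (-1.06).

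Between naive and MEF cytoplasm 11 members were higher and 11 lower in naive cells, where 36% and 35.9% of 16871 genes were. Arid3b had 81.1 and 93.6 CPM in naive cells against 8.74 and 9.71 in MEFs (log2 fold change 3.24, SE 0.15, adjusted p = 5.53e-05 by edgeR). Smarcd1 had 60.6 and 59.8 CPM against 20.4 and 20.6 (1.56, SE 0.12, adjusted p = 0.00022 by edgeR) and Chd7 79.2 and 87.0 against 29.3 and 29.6 (1.5, SE 0.12, adjusted p = 0.000236 by edgeR). Arid1a (99.2 and 108 against 53.5 and 59.5, 0.88, SE 0.12, adjusted p = 0.00155 by edgeR) and Smarca4 (466 and 396 against 302 and 295, 0.53, SE 0.12, adjusted p = 0.0115 by edgeR) were also higher in naive cells. The Smarca4 call was lost without either MEF library (0.52 to 0.55).

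Higher in MEFs were Chd9 (125 and 118 CPM against 14.2 and 16.6 in naive cells, -2.98, SE 0.13, adjusted p = 5.4e-05 by edgeR), Chd3 (93.1 and 89.7 against 14.8 and 10.5, -2.86, SE 0.19, adjusted p = 0.000151 by edgeR) and Smarcc2 (136 and 126 against 38.4 and 31.4, -1.91, SE 0.14, adjusted p = 0.000198 by edgeR). Groups did not overlap for Smarca4 and Arid1a, and genes without overlap were chosen for the others. The other remodelling genes had 33 of 75 higher in naive cells and 16 lower, with Bicral at 3.29, and Gatad2b (-2.26) and Baz1a (-1.94) lowest. Cecr2, an ISWI partner, was called higher as well, and no fold is given because both MEF cytoplasm libraries held 0 reads of it.

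Paralogs that occupy the same place in a complex were compared as CPM per kilobase of the transcript with the longest coding sequence. In naive cytoplasm Smarca4 stood at 73.6 ± 5.64 and Smarca2 at 3.59 ± 1.19 CPM per kb (SD, n = 2). The ratio of Smarca4 to Smarca2 was 15.7 to 28.3 in naive, 92.6 to 97.2 in primed, 8.83 to 12.3 in MEF and 2.02 to 2.11 in day 3 control cytoplasm. The ranges did not overlap between any of these 4, and no test was made on the ratios. Day 3 Nudt21 knockdown cytoplasm lay at 3.33 to 3.40.

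The ratio of Smarcc1 to Smarcc2 was 3.95 to 4.43 in naive, 5.65 to 5.76 in primed and 1.0 to 1.08 in MEF cytoplasm. Arid1a to Arid1b was 1.30 to 1.54 in naive, 2.07 to 2.25 in primed and 0.641 to 0.779 in MEF cytoplasm. By this measure Arid1b had the higher level per kb in fibroblasts, but that order depends on the transcript chosen. The Arid1b transcript used has 7309 bases and its longest has 11325, against 8187 for Arid1a by either choice. For Smarcd3, below, the lengths are 1735 and 3774 bases. A change of ratio between cells does not depend on the length used. Chd4 to Chd3 was 11.9 to 13.5 in naive, 19.5 to 24.6 in primed and 1.83 to 1.86 in MEF cytoplasm. Smarcd1 to Smarcd3 was 3.14 to 6.05 in naive, 13.8 to 18.7 in primed and 0.712 to 0.773 in MEF cytoplasm. Smarca5 to Smarca1 was 102 to 124 in naive, 15.3 to 19.4 in primed and 24.0 to 26.4 in MEF cytoplasm. Among these 3 the ratio was highest in primed cells for 5 of the 6 pairs compared and lowest there for Smarca5 to Smarca1. In total RNA of control naive ES cells, from another table and library type, Arid1a to Arid1b was 3.10 to 3.32, above the naive cytoplasm.

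**Figure D5:**
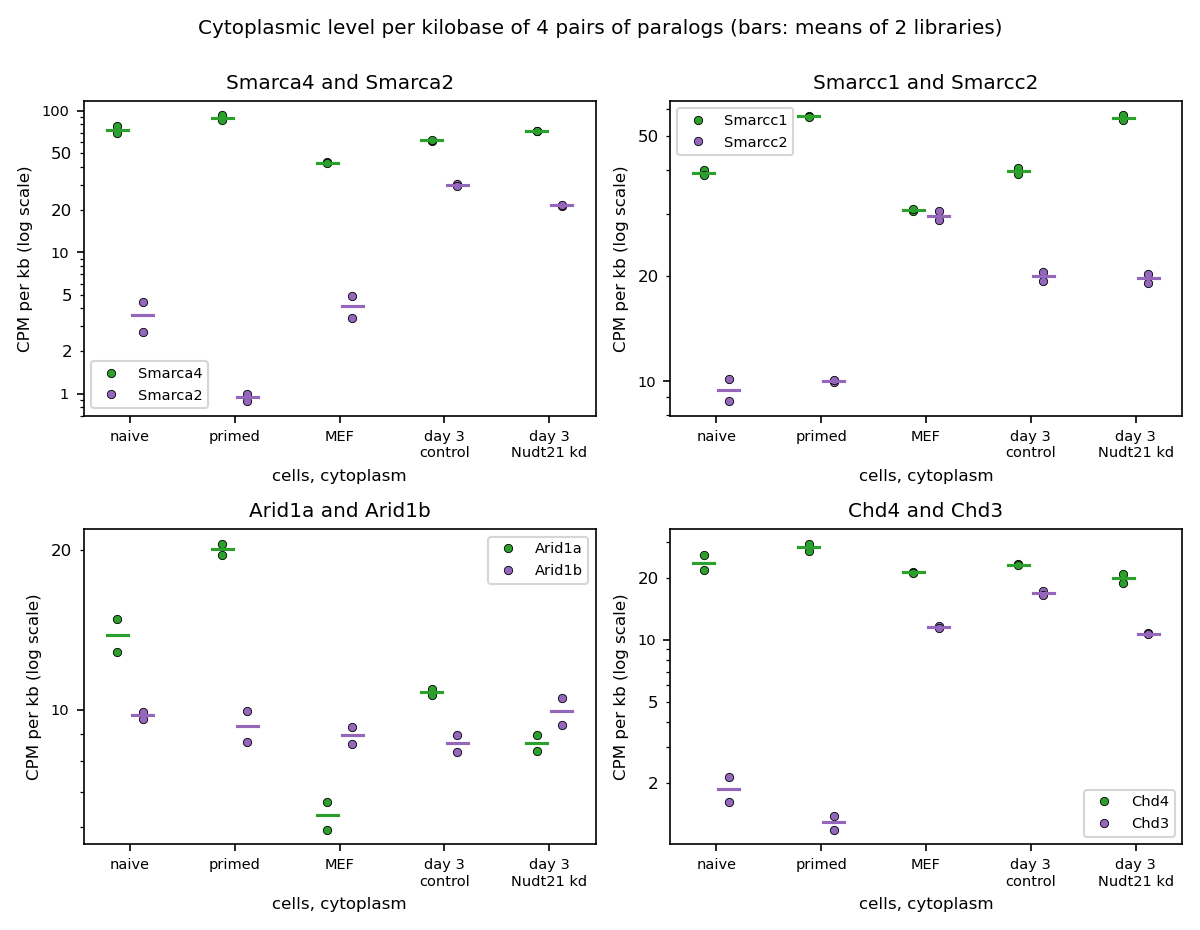
Cytoplasmic CPM per kb of Smarca4 and Smarca2, Smarcc1 and Smarcc2, Arid1a and Arid1b, and Chd4 and Chd3 (green and purple) in each library of 5 kinds of cells, on log axes, with bars at the means of 2 libraries. Smarca2 is near 1 CPM per kb in primed cells and near 30 in day 3 control cells, and Smarcc2 and Chd3 lie close to their paralogs in MEFs.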

How the data were processed

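The authors aligned P-body and cytoplasm reads with HISAT2 and counted them with featureCounts on refGene exons (mm10), and estimated counts for the polysome and Ago2 KO tables with salmon. All 3 deposited tables hold estimated counts that are in part not whole. How reads shared by several genes were divided is not given in the sources used here, so counts of paralogs and pseudogenes are uncertain. The 10 deposited DESeq2 tables hold the authors' own fold changes and p-values and were not used. Counts were rounded and fitted per comparison with edgeR 4.0.16 (R 4.3.3, TMM, at least 10 reads over the libraries of a fit, two-sided, adjusted over all genes). Printed CPM are TMM-scaled within a comparison. The SE came from the test statistic. Alternatives were DESeq2 1.42.0, its size factors, other filters, a fit over all groups, a replicate block and leaving out 1 library. Steps were tested on simulated data.

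Members and gene lists were chosen with earlier results of these data known. Full values are given for Smarca4, Arid1a and, in each direction, up to 3 called members with the largest log2 fold change among those whose mean reached 10 CPM and whose groups, where 2 were compared, did not overlap. Up to 2 other remodelling genes per direction were named likewise. Other members were described by role. Windows and gene features came from GENCODE M21. Replicates are separate samples per the labels, which state no cultures, so p-values measure the spread between samples.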

Additional observations from a re-analysis of the deposited data

Results flagged for a closer look

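The change in P-body enrichment between cell types, tested as an interaction over 4 groups, differed for 12 of the results described in full. Between naive and primed cells it was 2.15 for Arid4b, 2.04 for Chd9, 2.01 for Arid4a and 0.65 for Arid1a, and -0.48 for Smarcb1 and -1.07 for Smarca2. Between naive cells and MEFs it was 3.47 for Arid4a, 3.43 for Arid4b, 3.37 for Chd2 and 1.16 for Arid1a, and -0.55 for Smarcb1 and -1.98 for Smarcd3. All values are log2 differences. Smarca2 reached the mean of 10 CPM only through its naive libraries and Smarcd3 only through its MEF libraries. No group held 4 or more libraries, so no library was examined for standing apart from its group.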

How the results depend on the processing

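The number of called members stayed within 1.5 times its reported value under DESeq2, DESeq2 size factors, another filter or none, a fit over all groups and a replicate block in 11 of the 15 comparisons. In primed cells the fit over all groups gave 14. At day 3 with the control shRNA, DESeq2 gave 8, no filter 8, filterByExpr 3 and the fit over all groups 9, against 0. In Ago2 KO cells DESeq2 and no filter gave 5 each, against 3. For total RNA on DDX6 loss, DESeq2 and no filter gave 5 each and the fit over all groups 4, against 0.

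Same-numbered libraries share only a number in the labels, and their deviations correlated at -0.404 to 0.602 over 11 comparisons, highest in Ago2 KO cells. The study stored P-bodies alongside aliquots of the fraction they were sorted from, but which libraries match is not given in the sources used here. The main fits took no account of such matches. With the replicate block 13 members were called in Ago2 KO cells and 5 at day 3 with the control shRNA, and the count stayed within 1.5 times elsewhere. Arid1a and Smarca4 were among those called in both, at -1.01 and -0.75 in Ago2 KO cells and -0.92 and -0.70 at day 3.

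Leaving out 1 library at a time, with a lone library assumed to vary like the other group, gave 9 to 28 called members in naive cells, 19 to 25 in primed cells, 13 to 25 in MEFs, 0 to 21 at day 3 with the control shRNA, 10 to 21 with the Nudt21 shRNA and 1 to 13 in Ago2 KO cells. It gave 22 to 28 for occupancy in control cells and 25 to 27 in degron cells. For differences it gave 9 to 23 (naive and primed), 18 to 24 (naive and MEF), 0 to 6 (Nudt21) and 0 to 0 (occupancy). Total RNA gave 0 to 15, naive against primed cytoplasm 6 to 21 and naive against MEF cytoplasm 15 to 26.

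Over 77 results on named members, 863 alternative values were computed, of which 759 kept direction and call, 63 lost the call, 35 gained it and 6 changed sign. The occupancy difference of Smarca4 turned to 0.0050 with no filter, 0.0020 without control polysome replicate 1 and 0.0016 without control total RNA replicate 3, and ranged from -0.031 to 0.0020 on leaving out 1 library. That of Arid1a turned to -0.0022 without DDX6 degron polysome replicate 2 and -0.013 without control polysome replicate 3, in a range of -0.013 to 0.11. Smarca4 in naive against primed cytoplasm ranged from -0.20 to 0.020, the latter without naive cytoplasm replicate 2. The cause was not tested. Across members the Spearman correlation of naive enrichment with transcript GC content was -0.73, and -0.69 with the median over a gene's transcripts, and with transcript length 0.35 and 0.14.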
